A study of Mus musculus with 6106 samples.

Results

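Il1rl1, Il18r1, Il18rap and Il1r2 encode receptors of the interleukin 1 (IL-1) family. These 4 genes were taken by name from the 23725 genes of the table, of which 14544 had a transcript in the cells used, and they were followed in regulatory T cells (Tregs) of the spleen. Tregs are CD4 T cells marked by the transcription factor Foxp3, and these came from male B6 mice, 10 months old, with the alleles Nr4a1-Gfp and Foxp3-Ires-Thy1.1. GFP reports Nr4a1, which T cell receptor (TCR) signals induce, Thy1.1 reports Foxp3, and all 3 groups carried both. Cells without DAPI stain and with TCRb, CD4 and Foxp3-Thy1.1 were sorted by GFP into GFPlow (0-20%), GFPmed (40-60%) and GFPhigh (80-100%). Each bin was 1 library of the droplet method inDrops, which counts transcripts of single cells by unique molecular identifiers (UMIs), and the number of mice behind a library is not given in the sources used here.

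Il1rl1 encodes ST2, the receptor of the alarmin interleukin 33 (IL-33), which is released from damaged barrier and stromal cells and expands Tregs of non-lymphoid tissues. Il18r1 encodes the ligand-binding chain of the interleukin 18 (IL-18) receptor and Il18rap its second, signal-competent chain, whereas Il1r2 encodes a decoy that binds IL-1 and lacks the intracellular signalling domain. ST2, the IL-18 receptor and the IL-1 receptor pass their signal through Myd88 and Irak kinases to NF-kappa-B and MAP kinases.

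Cells with at least 500 UMIs were used, 5435 of 6106, with 1537 of 1682 in GFPmed and 1775 in GFPhigh, and 249 of 2372 GFPlow cells left out. The cells used held 2435870, 2512277 and 2270376 UMIs, and the median per cell was 1085 in GFPlow, 1129 in GFPhigh and higher in GFPmed. A level is a gene's UMIs scaled to 1000000 of all UMIs in its bin (UPM), and intervals in square brackets are exact 95% intervals that cover counting error only and treat UMIs as independent. With 1 library per bin there is no replicate and no test between bins, and a lower level in a bin can come from fewer expressing cells or from less RNA per cell. Nr4a1 itself stood at 35.7, 92.7 and 340.5 UPM in GFPlow, GFPmed and GFPhigh, in the order of the labels. Of 5361 cell barcodes, 73 occurred in more than 1 library, and without those cells the log2 ratios of GFPhigh over GFPlow given below were -2.22 for Il1rl1, -1.66 for Il18r1 and 3.65 for Il1r2. Markers of other cell types and no T cell marker were found in 62 cells, and the values that rest on them are given with and without them.

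The 4 genes lie in 1 cluster on the plus strand of mouse chromosome 1 (mm10, GENCODE M21), in the order Il1r2 (chr1:40074079-40125231), Il1rl1 (chr1:40429570-40465415), Il18r1 (chr1:40465552-40500854) and Il18rap (chr1:40515362-40551705), with Il1r1 and Il1rl2 between Il1r2 and Il1rl1. From the start of Il1r2 to the end of Il18rap the cluster spans 478 kb. Il1rl1 ends 0.136 kb before Il18r1 begins, so a read at that boundary could be counted for either gene, and how the counting treated this is not given in the sources used here. The bases before the annotated starts are shown because members of this cluster differed in opposite directions between the bins. Capitals mark matches to the GATA factor motif on either strand, searched as the letters AGATAA or TGATAA or AGATAG or TGATAG; the sequences are the plus strand of GRCm38.p6 from RefSeq, with exonic bases of these and overlapping genes left out. The RefSeq start of Il1r2 lies inside the longer GENCODE gene, so its stretch is upstream of the RefSeq transcript and within the GENCODE gene.
Il1rl1 start 1, chr1:40429320-40429569: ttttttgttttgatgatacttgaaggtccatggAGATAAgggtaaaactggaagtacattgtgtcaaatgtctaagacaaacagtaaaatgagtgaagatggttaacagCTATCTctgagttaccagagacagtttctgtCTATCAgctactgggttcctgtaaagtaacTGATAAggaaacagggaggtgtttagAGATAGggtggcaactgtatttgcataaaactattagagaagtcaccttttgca
Il1rl1 start 2, chr1:40439379-40439626: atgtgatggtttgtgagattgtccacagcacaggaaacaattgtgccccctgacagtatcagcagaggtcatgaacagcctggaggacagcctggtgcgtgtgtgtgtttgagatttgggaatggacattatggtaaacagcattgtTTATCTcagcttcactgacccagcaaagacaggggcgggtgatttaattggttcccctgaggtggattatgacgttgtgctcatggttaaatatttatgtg
Il18r1 upstream, chr1:40465419-40465551: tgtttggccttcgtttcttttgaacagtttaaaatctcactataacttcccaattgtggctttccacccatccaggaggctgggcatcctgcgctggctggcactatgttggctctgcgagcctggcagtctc
Il1r2 before its RefSeq start, chr1:40085852-40085984: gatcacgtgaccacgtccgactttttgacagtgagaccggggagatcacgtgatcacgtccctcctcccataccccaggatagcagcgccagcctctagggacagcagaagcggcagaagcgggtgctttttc

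Counted over whole windows of 250 bases before each start, exonic bases included, Il1rl1 had 5 GATA matches at its first start and 1 at its second, Il18r1 had 0 at each of 3 starts, and Il1r2 and Il18rap had 1 each. The match of Il1r2 lay in the bases left out of the printed stretch, and Il18rap is not printed because the gene had 1 UMI. Among the 250 bases before 32851 annotated mouse starts, 26.5% held at least 1 match and 0.0426% held at least 5. Motifs of AP-1 (TGANTCA), an NR4A monomer (AAAGGTCA) and NF-kappa-B had 0 matches in these windows of the 4 genes, and 6.75%, 1.34% and 17.6% of all promoters of that length held them. A match describes letters and no bound factor, and the 3′ tags counted here do not tell the start sites of a gene apart.

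Il1rl1, the IL-33 receptor gene, was highest in GFPlow. Its UMIs numbered 91 (GFPlow), 30 (GFPmed) and 17 (GFPhigh), or 37.4 [30.1, 45.9], 11.9 [8.06, 17] and 7.49 [4.36, 12] UPM. The intervals of GFPlow and of the other bins did not overlap, whereas those of GFPmed and GFPhigh did. The log2 ratio of GFPhigh over GFPlow was -2.28 [-3.16, -1.56], the 15th lowest of 8633 genes with at least 50 UMIs. GFPmed over GFPlow was -1.63 [-2.29, -1.04], and without the 62 cells of other types, when 22 UMIs remained in GFPmed, it was -2.05 [-2.81, -1.39]. GFPhigh over GFPmed was -0.66 [-1.62, 0.23].

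The GFPmed carriers among those cells were erythroid by their markers. The 3 cells, with 3982, 12670 and 15387 UMIs, held 1, 5 and 2 Il1rl1 UMIs, had between 14.1% and 19.3% of their UMIs from erythroid markers such as the haemoglobin genes, and had 0 UMIs of the T cell markers. With the 62 cells set aside Il1rl1 stood at 37.8, 8.98 and 7.58 UPM in GFPlow, GFPmed and GFPhigh, and GFPhigh over GFPmed was -0.24 [-1.25, 0.74]. With or without these cells the larger step lay between GFPlow and GFPmed, and the interval for the 2 upper bins held 0.

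Il18r1, the ligand-binding IL-18 receptor chain, was the member with most UMIs in GFPlow, GFPmed and GFPhigh. In GFPlow 13 cells held 2 UMIs, 4 held 3 and the other carriers 1, and GFPmed and GFPhigh had 77 and 42 UMIs. The levels were 62.4 [52.9, 73.1], 30.6 [24.2, 38.3] and 18.5 [13.3, 25.0] UPM. The order was GFPlow, GFPmed, GFPhigh, with GFPlow apart from both others and the intervals of GFPmed and GFPhigh overlapping slightly. GFPhigh over GFPlow was -1.74 [-2.28, -1.25] on the log2 scale, the 27th lowest of the 8633 genes. GFPmed over GFPlow was -1.02 [-1.44, -0.62], and GFPhigh over GFPmed was -0.72 [-1.31, -0.17]. Il18r1 was lower at each step with neither interval holding 0, whereas the interval of the second step of Il1rl1 held 0; the difference between the genes was not tested.

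Il1r2, the decoy receptor of IL-1, had the opposite order. A total of 1 UMI was found in GFPlow, 16 in GFPmed and 18 in GFPhigh, or 0.411 [0.0104, 2.29], 6.37 [3.64, 10.3] and 7.93 [4.70, 12.5] UPM. On the log2 scale GFPhigh over GFPlow was 3.73 [1.61, 9.65] and GFPmed over GFPlow 3.41 [1.27, 9.35], both resting on the 1 UMI of GFPlow. The ratio of GFPhigh over GFPmed was 0.31 [-0.74, 1.38]. The intervals of GFPmed and GFPhigh overlapped and lay above that of GFPlow, although the gene was rare throughout. Gm16894, which overlaps Il1r2 on the other strand, had 4, 0 and 2 UMIs, and whether counting used the strand is not given in the sources used here.

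Il18rap, the second chain of the IL-18 receptor, had no UMI in GFPlow or GFPhigh and 1 in GFPmed. The limits that 3 counts set were 1.23, 1.19 and 1.32 UPM, so Il18rap was not detectable at this depth in cells where Il18r1 was. Its 1 UMI lay in a cell of 825 UMIs with 32 UMIs of CD8 T or NK cell markers, among them Ccl5 and Gzma with 8 each, and with no UMI of Cd3e, Cd4 or Foxp3.

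Genes were counted as past 2-fold if their 2 libraries together held 50 UMIs or more. Il1rl1 and Il18r1 were measured for GFPhigh over GFPlow and both were lower, where 1.34% of all measured genes were. For GFPmed over GFPlow both were lower as well, against 0.978% of genes; Il18r1 lay near the boundary there, and it fell short of 2-fold at -0.76 among cells with 1000 to 2000 UMIs. For GFPhigh over GFPmed Il18r1 was the member with enough UMIs and was not past 2-fold, against 0.602% of genes. Higher by 2-fold were 2.16%, 0.747% and 1.5% of genes for GFPhigh over GFPlow, GFPmed over GFPlow and GFPhigh over GFPmed, and none of these members was among them, since Il1r2 and Il18rap had too few UMIs to be counted in any pair.

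**Figure D1:**
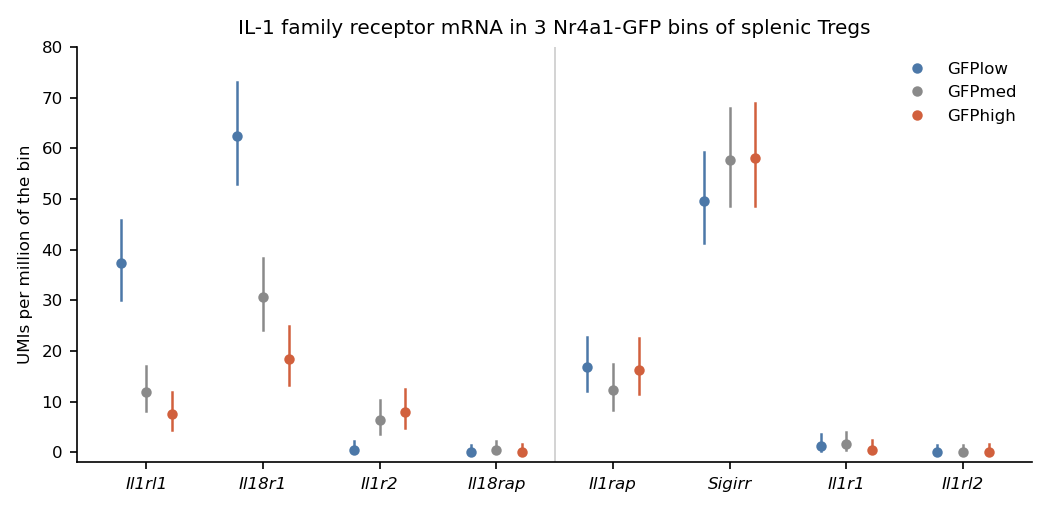
Levels in UPM of the 4 receptor genes and, right of the line, of Il1rap, Sigirr, Il1r1 and Il1rl2. Values are for the GFPlow, GFPmed and GFPhigh libraries, with points for the level and bars for the exact 95% Poisson interval. Il1rl1 and Il18r1 are highest in GFPlow at 37.4 and 62.4 UPM, Il1r2 is highest in GFPhigh at 7.93 UPM, and Il18rap has 1 UMI in all.

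The share of cells with a UMI of a member, here called its carriers, followed the same order. Carriers of Il1rl1 numbered 67, 18 and 14 cells in GFPlow, GFPmed and GFPhigh, which was 3.16%, 1.17% and 0.789% of cells. After each cell was thinned to 500 UMIs the shares were 1.70%, 0.325% and 0.282%. Carriers of Il18r1 were 6.17%, 4.36% (67 cells) and 2.14% (38 cells) of the bins, and 3.30%, 1.63% and 0.958% after thinning. For Il1r2 the numbers were 1, 9 and 11, with 0.0471%, 0.586% and 0.620% unthinned and 0.0471%, 0.325% and 0.338% thinned, and another random draw of the thinning gave 0.113% in GFPhigh. Most carriers held 1 UMI, 74 of 99 for Il1rl1, 205 cells for Il18r1 and 13 of 21 for Il1r2, so a cell without a UMI cannot be called negative.

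These shares can be set beside cells with markers of other types and no T cell marker. Whether those cell types express the members was not tested, so they are no negative control. In the 62 cells of other types, whose median depth was 1103 UMIs, 3 carried Il1rl1, which is 4.84% [1.01, 13.5], 1 carried Il18r1 (1.61%) and 0 carried Il1r2, a count that allows up to 4.84%. Thinned to 500 UMIs, 1 of the 62 carried Il1rl1, or 1.61% [0.04, 8.66], beside 1.70% [1.19, 2.34] of GFPlow cells. With 1 such cell, this comparison cannot tell whether the share in GFPlow differs from that in the 62 cells. All 3 Il1rl1 carriers were erythroid, and 46 B or plasma cells had 0 UMIs of Il1rl1, Il18r1 and Il1r2. The Il18r1 carrier was a GFPmed cell with 37 UMIs of CD8 T or NK cell markers. One GFPhigh carrier of Il1rl1 held 31 erythroid and 4 T cell marker UMIs in 2824 UMIs and was kept.

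Within the carriers, Treg and T cell identity was checked against markers. Foxp3 had a UMI in 36 of 99 carriers of Il1rl1 (36.4%), 84 of Il18r1 (35.6%) and 6 of 21 of Il1r2 (28.6%). The Il1rl1 carriers held 619 UMIs from 8 of 8 T cell markers. Without the cells of other types this list stood at 4630 UPM in carriers and 4521 UPM in other cells, 0.04 [-0.08, 0.15], but in GFPmed it was lower in carriers at -0.44 [-0.77, -0.14]. ST2 is also known from mast cells, basophils and type 2 lymphoid cells. Of 10 mast cell or basophil markers 1 had a single UMI in these carriers, with Mcpt8, Cpa3, Fcer1a, Ms4a2, Gata2 and Kit at 0. Of 8 markers of ILC2 or Th2 cells 0 had a UMI. Only 2 markers of each list had a UMI in any used cell, so most of these zeros say little. Without the cells of other types, CD8 T or NK markers were at 0.15, -3.43 and 1.38 [0.07, 2.29] in GFPlow, GFPmed and GFPhigh carriers.

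Carriers of Il1rl1 in GFPlow stood apart by effector Treg genes. A list of 33 such genes (S100 proteins, galectins, integrins, chemokine receptors and others) summed to 18250 UPM in the 67 carriers and 5446 UPM in the other GFPlow cells without the cells of other types, a log2 ratio of 1.75 [1.67, 1.82]. Of 28 members measured, 25 were higher in carriers. Of all 8632 measured genes 5134 were higher in these carriers with all cells kept, with a median of 0.21. Among the 28 an interval above 0 was found for 19 and one below for 0, and the share of all genes with such intervals was not computed. Klrg1, an inhibitory receptor of terminally differentiated effector cells, had a UMI in 25.4% of carriers and 1.62% of other cells, Itgae, the alpha chain of the integrin that binds E-cadherin, in 25.4% and 3.39%, and Ccr2, a receptor of inflammatory chemokines, in 35.8% and 4.32%.

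The same cells were lower in part of the resting programme. The resting Treg list had a log2 ratio of -0.45 [-0.61, -0.30]. Of its 20 genes 13 were lower, where 3498 of all 8632 measured genes were lower with all cells kept. An interval below 0 was found for 8 and one above 0 for 1, and the share of all genes with such intervals was not computed. Ccr7, the lymph node homing receptor, was lowest at -3.15 [-6.52, -1.62], followed by Actn1 at -3.01 and Igfbp4 at -2.54, whereas Klf2, a transcription factor of recirculating T cells, was higher at 0.67 [0.35, 0.96]. Transcription factors of tissue Tregs were higher as a list at 1.23. Gata3 stood at 652.6 against 273.1 UPM, with a UMI in 43.3% of carriers and 20.1% of other cells, Ikzf2 (Helios) at 1.38 [1.08, 1.67], Prdm1 (Blimp-1) at 2.21 [1.24, 2.99] and Maf at 1.23 [0.77, 1.63]. TCR response genes and NF-kappa-B products lay near the other cells, at -0.19 and 0.19.

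In GFPmed and GFPhigh, where carriers were fewer, the effector genes were again higher. Without the cells of other types the list stood at 0.78 [0.55, 1.0] in 15 GFPmed carriers and 1.0 [0.75, 1.23] in 14 GFPhigh carriers, and 1.82 in GFPhigh where carriers were called after thinning. With them, the GFPmed value was -0.11 [-0.33, 0.09]. Over the 29 carriers of both bins Klrg1 was at 4.11, S100a4 at 3.56 and Itgae at 3.14, while Nr4a1 was at -2.07. The values of Klrg1 and Itgae rest on few cells. With all cells kept, Klrg1 had a UMI in 1 of 18 GFPmed and 3 of 14 GFPhigh carriers, and Itgae in 1 and 2. Resting genes were at 0.03 in GFPmed and 0.17 in GFPhigh, so the lower resting level of the GFPlow carriers was not seen there; the difference between bins was not tested.

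Carriers of Il18r1 showed the effector pattern in smaller size. Their effector list stood at 0.82 [0.74, 0.90] in GFPlow, 0.61 [0.49, 0.73] in GFPmed and 0.32 [0.13, 0.50] in GFPhigh, without the cells of other types. Of the measured effector genes 26 of 28, 21 of 25 and 18 of 24 were higher in these bins, and the share of all genes by bin was not computed. In the mean of the 3 bins, with all cells kept, 25 of 28 effector genes and 4835 of all 8632 measured genes were higher. CD8 T or NK cell markers were also higher in the GFPlow carriers, at 225.4 against 127.7 UPM, 0.84 [0.27, 1.33], while they were at -0.27 in GFPmed and -0.20 in GFPhigh, and their part in the result was not tested. With every cell left out that had 2 or more marker UMIs of other types the effector list was at 0.77, 0.71 and 0.15. In GFPlow the chemokine receptor gene Ccr6 was at 2.64, Lgals3 at 2.02, S100a4 at 1.49 and Icos at 1.25, and Bach2, a repressor of effector differentiation, was at -1.21. Resting genes as a list lay near the other cells, at -0.12, -0.08 and -0.18, and TCR response genes at -0.03, 0.06 and -0.10. NF-kappa-B products were at 0.62 [0.34, 0.87] in GFPhigh, against -0.18 and -0.03 in the lower bins.

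Carriers of Il1r2 carried another set of genes. In the 9 GFPmed and 11 GFPhigh carriers TCR response genes stood at 1.45 [1.03, 1.82] and 1.71 [1.45, 1.95], resting genes at -2.03 and -2.41 and transcription factors of tissue Tregs at 2.11 and 1.67. Over the 20 carriers together, NF-kappa-B products were at 1.2 and follicular genes at 1.85. Ebi3, a subunit of interleukin 35, was at 4.15, Egr2, a TCR-induced transcription factor, at 3.63, Penk, the enkephalin precursor, at 3.42 and Bcl6, the transcription factor of follicular T cells, at 3.03. Maf was found in 14 of the 20 cells, Tnfrsf9 (4-1BB) in 13, Batf in 9 and Ikzf2 in 19.

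On the low side, Ccr7, Igfbp4, Ly6c1, Ly6c2 and Actn1 had 0 UMIs in these 20 cells, against 265, 328.1, 234, 143.9 and 349 UPM in the other cells of the 2 bins. S1pr1, the receptor for exit from lymphoid organs, was at -3.80 and Klf2, which drives S1pr1, at -2.36. Effector genes as a list were higher here too, at 1.12 in GFPmed and 0.91 in GFPhigh, but the list was split. Of the measured effector genes 17 of 25 in GFPmed and 16 of 24 in GFPhigh were higher. Intervals above 0 were found for 8 genes in each bin, and intervals below 0 for 2 in GFPmed and 1 in GFPhigh. The shares of all genes were not computed for these carriers. Il1r2 carriers were thus low in resting genes and high in TCR response genes, whereas Il1rl1 carriers of GFPmed and GFPhigh differed little in both lists; 20 cells limit the precision of each gene. Of all 21 carriers 8 (38.1%) held 2 or more UMIs of other types' markers, against 13.6% of other cells, and B or plasma cell markers were at 1.75 [0.67, 2.54] in the 20. No doublets were removed, but without every such cell TCR response genes were at 1.32 in GFPmed and 1.62 in GFPhigh and resting genes at -3.77 and -2.23.

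**Figure D2:**
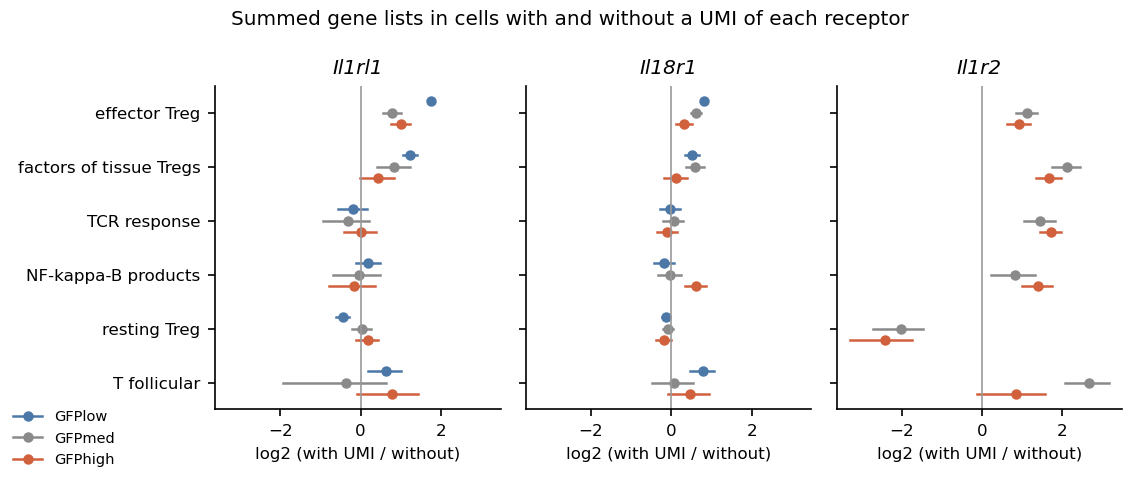
Log2 ratio of summed gene list levels in cells with a UMI of Il1rl1, Il18r1 or Il1r2 over the other cells of the same bin, without cells of other types; points are the ratios by bin and bars the exact 95% counting intervals. Effector Treg genes lie above 0 for Il1rl1 (1.75 in GFPlow) and Il18r1 (0.82 in GFPlow), and TCR response genes lie at 1.45 and 1.71 for Il1r2.

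The genes whose detection was most like that of a member were ranked by the log2 ratio in carriers. For Il1rl1, ranked in the 67 carriers of GFPlow, the leading genes were Klrg1 at 4.05, Hist2h2ac at 3.55, Itgae at 3.27, Rxra at 3.06, Ccr2 at 3.05, Ccna2 at 3.04, Hist2h3c1 at 2.99 and Taf6 at 2.96. Klrg1 and Itgae were found in 17 carriers each and Ccr2 in 24, but Hist2h2ac in 3, Ccna2 in 2, and 16 of the 19 UMIs of Hist2h3c1 were in 1 cell. For Il18r1, ranked over 3 bins, they included Klrg1 at a mean of 2.37, Atg16l1 at 2.06, Itgae at 1.83, Slc35c2 at 1.44, Trpv2 at 1.35, Cyfip1 at 1.27 and Papd4 at 1.24. Among Il18r1 carriers Klrg1 was found in 4 GFPlow, 4 GFPmed and 3 GFPhigh cells, and Itgae in 10, 4 and 1. In GFPhigh 6 of 8 Klrg1 UMIs and all 5 Itgae UMIs lay in 1 cell each. The GFPlow intervals of Klrg1 [-0.15, 1.82] and Itgae [-0.26, 1.60] spanned both signs, and those of GFPmed and GFPhigh were positive. Klrg1 and Itgae were in both rankings, for Il18r1 on these few cells. Haemoglobin genes were lowest in both, with the erythroid cells kept among the other cells; when cells of other types were left out, erythroid markers in GFPlow carriers of Il1rl1 moved from -4.76 to -2.35. Il1r2 had under 20 carriers in each bin and was not ranked.

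Il1rl1 and Il18r1 were found in the same cell 8 times, which was 8.08% [3.55, 15.3] of Il1rl1 carriers, against 4.27% of other cells with Il18r1, and 3.39% [1.48, 6.57] of Il18r1 carriers. Median depth was 1292 UMIs in Il1rl1 carriers and 1206.5 in other cells, and the interval of the share in carriers held the share in other cells. Il1r2 and Il18r1 were found together in 2 cells, 9.52% of Il1r2 carriers and 0.847% of Il18r1 carriers. Il1r2 and Il1rl1 were together in 0 cells, a count that allows up to 14.3% of Il1r2 carriers, so a separation of the 2 could not be shown at this depth.

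Effector genes themselves were lower in GFPhigh than in GFPlow, 24 of 28 measured, 12 of them past 2-fold. Of all 8633 measured genes 3919 were lower, 150 of them past 2-fold. The median log2 ratio was -0.74 for the effector genes against 0.04 for all 8633 genes. Cells of the 3 bins were therefore ordered together by the share of effector UMIs and divided into 5 equal classes, and the class with the highest share held 29.9%, 14.2% and 13.2% of the GFPlow, GFPmed and GFPhigh cells. In that class Il1rl1 stood at 103.6, 32.8 and 29.2 UPM and Il18r1 at 103.6, 68.5 and 32.9 UPM. The Il1rl1 UMIs came from 51, 4 and 5 cells. Of the 91 Il1rl1 UMIs of GFPlow, 72 (79.1%) lay in it, and 47.4% of those of Il18r1. The UPM values of both genes were highest in GFPlow.

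Within the class GFPhigh over GFPlow was -1.75 [-3.09, -0.77] for Il1rl1 and -1.59 [-2.84, -0.65] for Il18r1. GFPmed over GFPlow was -1.61 [-2.73, -0.74] for Il1rl1 and -0.58 [-1.34, 0.10] for Il18r1, and GFPhigh over GFPmed was -0.14 [-1.68, 1.28] and -1.01 [-2.35, 0.11], so the last 3 intervals held 0. The bins were not alike in effector share even there, with medians of 1.05%, 0.877% and 0.820% of UMIs. For Il18r1 the ratio was negative in each of the 5 classes, from -2.35 to -0.98. Il1r2 had 0 UMIs in the GFPlow cells of the class and stood at 35.7 UPM in GFPmed and 18.3 UPM in GFPhigh.

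**Figure D3:**
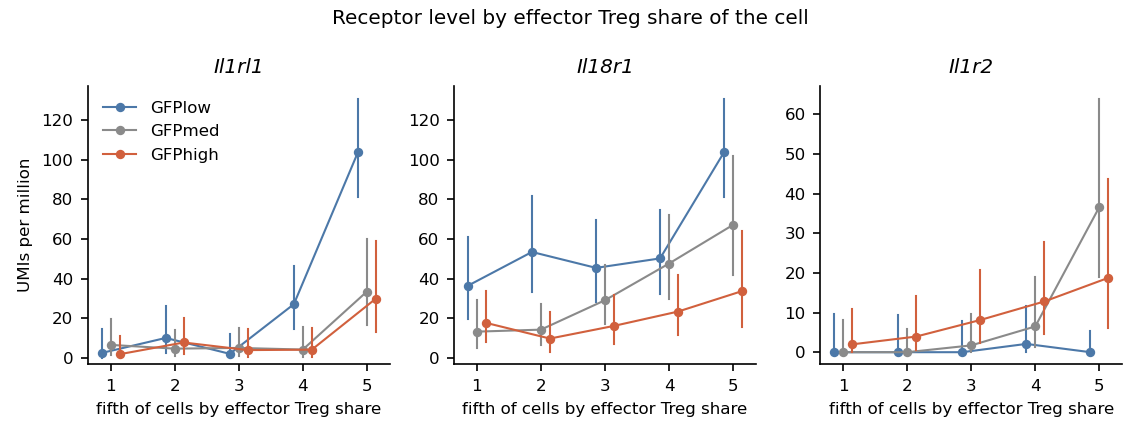
Levels of Il1rl1, Il18r1 and Il1r2 in UPM in 5 equal classes of cells ordered by their share of effector Treg UMIs, for each bin, without cells of other types; bars are exact 95% Poisson intervals. Il1rl1 and Il18r1 are highest in GFPlow cells of the highest class, at 103.6 UPM each with all cells kept.

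The other receptors of the family gave the members' context. Il1rap, the shared co-receptor of ST2 and the IL-1 receptor, had 41, 31 and 37 UMIs from the lowest to the highest GFP bin, or 16.8, 12.3 and 16.3 UPM, and its log2 ratio of GFPhigh over GFPlow was -0.04 [-0.73, 0.63]. Sigirr, an inhibitory member, had 49.7, 57.7 and 58.1 UPM and a ratio of 0.23 [-0.14, 0.60]. Neither differed beyond counting error where Il1rl1 and Il18r1 did. Il1r1, the signalling receptor of IL-1, had 3, 4 and 1 UMIs, and Il1rl2, Il1rapl1 and Il1rapl2 had 0.

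Ligand transcripts were scarce in these sorted T cells. Il18 had 7, 0 and 2 UMIs in GFPlow, GFPmed and GFPhigh, Il1b had 0, 3 and 0, and Il33 and Il1a had 0 in every bin. Il1rn, the IL-1 receptor antagonist, had 3, 6 and 4 UMIs, Il1f9 (an interleukin 36) 11, 10 and 8, and Il18bp, the soluble IL-18 inhibitor, 13, 11 and 8. Casp1, the protease that matures IL-1 beta and IL-18, had 44, 26 and 26 UMIs and a GFPhigh over GFPlow ratio of -0.65 [-1.42, 0.07]. Il1f5, Il1f6, Il1f8 and Il1f10 had 0 UMIs.

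Downstream of the receptors, 21 signalling genes were measured, 10 higher and 11 lower in GFPhigh over GFPlow, and 1 passed 2-fold, where 4714 of all 8633 measured genes were higher. That gene was Mapkapk2, a kinase activated by p38, at 57.9, 93.5 and 141.8 UPM with a ratio of 1.29 [1.0, 1.59]; Mapk8 was at 0.79, Irak2 at 0.71 and Zc3h12a, an RNase that limits cytokine messages, at 0.65. Of 12 NF-kappa-B products 10 were higher, 2 past 2-fold, with a median of 0.47, led by Rel at 1.80 and Nfkbid at 1.37, then Bcl3 at 0.97 and Nfkbiz at 0.96. TCR response genes were higher in 17 of 18 cases with a median of 1.04, led by Penk at 4.32, Lad1 at 3.79 and Tnfrsf9 at 3.71. Receptor levels and these lists therefore did not share 1 order over the bins. The summed TCR response list stood at 934, 1243 and 2391 UPM in GFPlow, GFPmed and GFPhigh, whereas Il1rl1 and Il18r1 were highest in GFPlow. Il1r2 had the order of that list, with overlapping intervals in GFPmed and GFPhigh.

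The remaining lists give the bins in which the members were read. For GFPhigh over GFPlow 12 of 20 resting genes were lower and the median was -0.20; Dapl1 was at -1.60, Cd55 at -1.59, Ly6c2 at -1.49 and Il7r at -1.39. Of 12 transcription factors of tissue Tregs 7 were higher, a share near that of all genes, with Bhlhe40 at 1.61, Bcl6 at 1.37, Maf at -1.08 and Prdm1 at -0.88. Gata3 stood at 283, 200.6 and 349 UPM in GFPlow, GFPmed and GFPhigh, so that it was higher in GFPhigh by 0.30 [0.15, 0.45], where Il1rl1 was lower. Of 12 Treg identity genes 10 were higher, with a median of 0.76, led by Gpr83 at 2.36 and followed by Il2rb, Lrrc32 and Ikzf4 at 1.28, 1.27 and 1.24. Of 6 follicular genes Pdcd1 was at 2.20, Cd200 at 1.83, Bcl6 at 1.37 and Icos at -0.51.

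Within 500 kb of the members 11 other protein-coding genes are annotated, and all 11 were in the table. Map4k4, a kinase gene, had 127.3, 128.2 and 133.5 UPM in GFPlow, GFPmed and GFPhigh with a GFPhigh over GFPlow ratio of 0.07 [-0.16, 0.30], and Rnf149, a ubiquitin ligase gene, had 81.3, 77.2 and 104.4 UPM with a ratio of 0.36 [0.08, 0.64]. Creg2 and Mfsd9 had 10 or fewer UMIs in each bin. Neither of the 2 well-measured neighbours had the order of Il1rl1 and Il18r1.

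**Figure D4:**
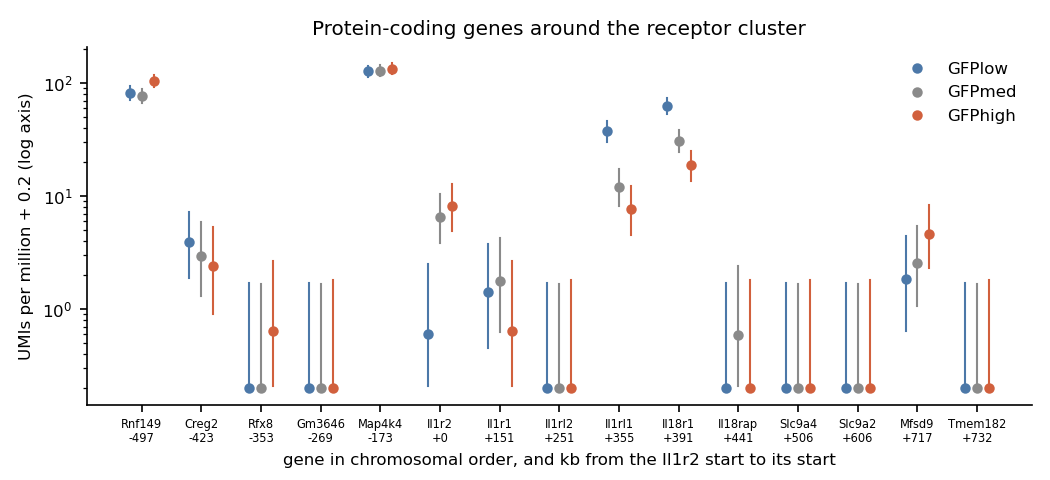
Levels in UPM, with a small constant added, of the protein-coding genes around the receptor cluster in GFPlow, GFPmed and GFPhigh. The axis is logarithmic, genes stand in chromosomal order at even spacing, and bars are exact 95% Poisson intervals. Il1rl1 and Il18r1 are highest in GFPlow at 37.4 and 62.4 UPM, and Il1r2 is highest in GFPhigh at 7.93 UPM. Map4k4 stands at 127.3, 128.2 and 133.5 UPM in GFPlow, GFPmed and GFPhigh.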

How the data were processed

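The deposited values were raw UMI counts per gene and cell for 6106 cells, each a labelled sample. Per the submitters' processing notes TopHat2, SAMtools and mm10 were used; versions, annotation, counting program and strand use are not given in the sources used here. All columns matched a label. The 4 members and the gene lists were chosen with earlier results of these data known.

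Cells with at least 500 UMIs were kept and UMIs were summed per bin. Log2 ratios had 0.5 UMI added to each count. Intervals were exact Poisson for levels, conditional binomial for ratios and Clopper-Pearson for shares, at 95%; a count of 0 was given a limit of 3 counts. A difference was counted past 2-fold for genes whose pair of libraries held 50 UMIs or more. List ratios compared cells with and without a member UMI inside 1 bin, the member left out. Cells of other types had at least 3 UMIs of B or plasma, erythroid or myeloid markers and 0 of the T cell markers. No doublets were removed. Each bin is 1 library, which allows no test across bins.

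Named genes were the members, the family receptors and ligands, up to 4 genes per list with the largest ratios, and the 8 and 5 genes with the highest and lowest ratios in carriers, among genes with at least 100 and 300 UMIs; some genes are not reported here. Other genes named in carriers, including all for Il1r2, were chosen after their values were seen, as were the pooling of GFPmed with GFPhigh carriers, the 5 classes by effector share and the 2 neighbours given in full. Single-gene ratios in carriers, other than the ranking by likeness, leave out the cells of other types. Of the symbols 96.2% were in GENCODE M21. Alternatives changed the UMI minimum, scaling (edgeR 4.0.16 TMM factors and DESeq2 1.42.0 size factors, as scaling only, in R 4.3.3), cell weights, added count, thinning depth and seed, and left out cells. The code was tested on simulated data. Python 3.11.15, numpy 2.4.6, scipy 1.17.1, pandas 2.3.3 and matplotlib 3.10.9 were used.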

Additional observations from a re-analysis of the deposited data

Results flagged for a closer look

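Cells under 500 UMIs were left out of all comparisons and still held receptor transcripts above the limit of 3 counts. In 249 such GFPlow cells there were 8 UMIs of Il1rl1 and 10 of Il18r1, and in 277 such GFPhigh cells there were 4 UMIs of Il18r1.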

How the results depend on the processing

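No paired analysis was possible because each bin is 1 library and no test was made. All 99 alternative values of the members' ratios between bins kept their sign and lay within the interval of the value reported, and scaling moved all ratios by at most 0.08. GFPhigh over GFPlow ranged from -2.53 to -2.01 for Il1rl1, from -1.85 to -1.61 for Il18r1 and from 3.15 to 4.96 for Il1r2. GFPmed over GFPlow ranged from -1.08 to -0.76 for Il18r1, so that its 2-fold call did not hold under some settings; without shared barcodes, an alternative chosen after seeing the data, it was -0.95. Of the shares of cells, 23 of 36 alternative values stayed within the interval. Without thinning they were 3.16%, 1.17% and 0.789% for Il1rl1 and 6.17%, 4.36% and 2.14% for Il18r1 in GFPlow, GFPmed and GFPhigh. Thinned to 1000 UMIs they were 2.92%, 0.816% and 0.752% for Il1rl1, 5.44% in GFPlow and 1.79% in GFPhigh for Il18r1, and 0.846% in GFPhigh for Il1r2; another seed at 500 UMIs gave 0.113% there. Of the list ratios in carriers 102 alternative values stayed within the interval, 25 moved outside it and 1 changed sign from a ratio past 2-fold. Sign changes of smaller ratios were counted as stayed or moved. The effector list of GFPmed Il1rl1 carriers was such a case, at -0.11 with all cells kept. The effector list with carriers called after thinning was 1.52, 0.84 and 1.82 for Il1rl1 in GFPlow, GFPmed and GFPhigh, 0.81 for Il18r1 in GFPmed and 1.37 for Il1r2 in GFPhigh. For Il1rl1 it was 1.94 in GFPlow cells with at least 1000 UMIs, and in GFPmed 0.63 without every cell that had 2 or more marker UMIs of other types and 0.78 without the cells of other types, a setting chosen after seeing the data. The latter turned the resting list of GFPmed Il1rl1 carriers from -1.06 to 0.030. In the class with most effector UMIs, thinning to 1000 UMIs gave shares of 11.9% and 5.56% for Il1rl1 in GFPlow and GFPhigh, and 13.9% and 8.82% for Il18r1 in GFPlow and GFPmed. Depth limits Il1r2, with 1 UMI in GFPlow, and Il18rap, with 1 UMI in all. Batch and GFP bin cannot be told apart.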

Other observations

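In classes of cells with 0 to 5 or more effector Treg UMIs of 500, cells with 5 or more carried Il1rl1 in 5.29%, 1.50% and 0.794% of GFPlow, GFPmed and GFPhigh cells and Il18r1 in 7.93%, 3.76% and 2.38%. Cells with 0 effector UMIs carried Il1rl1 in 0.471%, 0.460% and 0% and Il18r1 in 1.41%, 0.460% and 0.943%. In each bin the share was higher in the class of 5 or more than in the class of 0, but the cells were few. Carriers of Il1rl1 numbered 22, 2 and 1 in the class of 5 or more and 2, 2 and 0 in the class of 0. Those of Il18r1 numbered 33, 5 and 3 against 6, 2 and 5. For both genes the intervals of these classes were apart in GFPlow and overlapped in GFPmed and GFPhigh. These differences were not tested. The Il1rl1 carriers of GFPmed and GFPhigh also had Klf2, a gene of the resting list, at 0.79 on the log2 scale against other cells of these bins.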
